A study of Mus musculus with 6 samples.

Results

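The mitosis and G2/M genes are 35 genes whose proteins carry a cell from G2 through chromosome segregation and cytokinesis. They were chosen by name, with earlier results of these data known, and a gene was represented by its brightest probe set that the platform annotation assigns to that symbol alone. Of the 35, 34 had such a probe set and passed the brightness floor, and cyclin B1 (Ccnb1) had none here. The series holds 16797 tested genes in all. RNA from cultured mouse cancer cells, described as transfected with the hairpin where they carry it, was hybridised to 6 arrays, with 1 array labelled sh Spp1 and 1 labelled sh Ctrl in each of 3 lines. The lines are a Lewis lung carcinoma (LLC), a mesothelioma, a tumour of the mesothelial lining (AE17), and a colon adenocarcinoma (MC38), all grown in medium with fetal bovine serum. The sh Spp1 cultures carry the genotype label Spp1 depletion and the sh Ctrl cultures the label wild type, so the labels do not settle whether the controls received a hairpin. The hairpin targets Spp1, which encodes the secreted glycoprotein osteopontin, and the labels do not say whether a culture was a clone or a pool. No probe set used here names Spp1, so its level was not analysed here and each direction rests on the labels.

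Entry into mitosis is driven by Cdk1 bound to cyclins A2, B1 and B2. The kinetochore then couples chromosomes to the spindle, and the checkpoint kinases hold back the anaphase-promoting complex until every chromosome is attached. That complex, with its activator Cdc20 and its ubiquitin-conjugating enzyme Ube2c, marks securin (Pttg1) and the cyclins for destruction, and the cell divides. Transcripts of these genes are low in G1 and peak in G2 and M, so in a bulk culture fewer cells in G2 and M and less RNA per cell cannot be told apart.

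Levels below are log2 intensities after quantile normalization, and a ratio is the sh Spp1 level minus the sh Ctrl level of the same line. The arrays were not on 1 distribution as deposited: the median intensity was 37.2, 26.6 and 43.7 on the sh Spp1 arrays of LLC, AE17 and MC38, against 64.2, 36.3 and 49.4 on the sh Ctrl arrays. The 10th to 90th percentile span in log2 was 6.73, 6.56 and 6.57 on sh Spp1, against 5.99, 6 and 6.05 on sh Ctrl. On the sh Ctrl arrays the members had median levels of 9.87, 10.36 and 10.41, against 6.78, 6.97 and 6.86 for all genes. How this bears on the shifts below was not tested. The 2 arrays of AE17 correlated at r = 0.939 over probe sets, against 0.979 in LLC and 0.982 in MC38, and the SD of the ratios over all genes was 0.93 in AE17, 0.45 in LLC and 0.42 in MC38. Several markers of the labelled tissues were near the floor of 4.49, and others were brighter. The mesothelial gene Msln had 5.34 on the sh Spp1 array and 5.13 on the sh Ctrl array of AE17, against 9.96 and 9.87 in MC38, and Calb2 lay under the floor on all 6 arrays, whereas Pdpn, on the same list, had 9.75 and 6.99 in AE17. The intestinal factor Cdx2 had 5.03 and 5.18 in MC38, and Krt8 had 7.14 and 6.69 there. In LLC the surfactant gene Sftpc had 4.62 and 4.60, and Abca3 had 7.99 and 7.73. In AE17 the fibroblast list had 6 of 8 markers higher on the sh Spp1 array, with a summed normalized intensity of 7382 against 1780, of which Col1a1 made 3991 against 117. In LLC and MC38, 1 of the 8 was higher, with sums of 1068 against 1765 and of 3703 against 6223. The mesothelial list had 5 of 9 higher in AE17, with 1169 against 456, of which Pdpn made 862 against 127. For colon epithelium 3 of 9 were higher in AE17, with 348 against 2536, and this gap is mostly Krt8, since the other 8 summed to 259 against 369. In LLC and MC38, 6 and 7 of these 9 were higher, with 1375 against 1113 and 412 against 367. The parts of these lists in the results below were not tested.

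Many promoters of G2/M genes carry a CHR (cell cycle genes homology region), which is bound by the DREAM complex and by the B-Myb and FoxM1 complexes, together with CCAAT boxes bound by NF-Y. The RefSeq promoter table for GRCm38.p6, which gives 250 bases before to 50 bases after a start, held 29 of the 35 members. The CHR was searched as TTTGAA or TTCGAA and the box as CCAAT, each on both strands, with the first listed start of each gene. A CHR was present in 22 of the 29 promoters, or 75.9%, against 14.4% of 13011 promoters of tested genes and 19.4% of all 27025. A CCAAT box was present in 21, or 72.4%, against 37.8% and 37.9%, and both motifs in 19, or 65.5%, against 5.93% and 7.7%. TTCGAA reads the same on both strands, a CHR and a CCAAT match can share end bases, and a match is a description of the sequence and not a shown binding site.

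**Figure D1:**
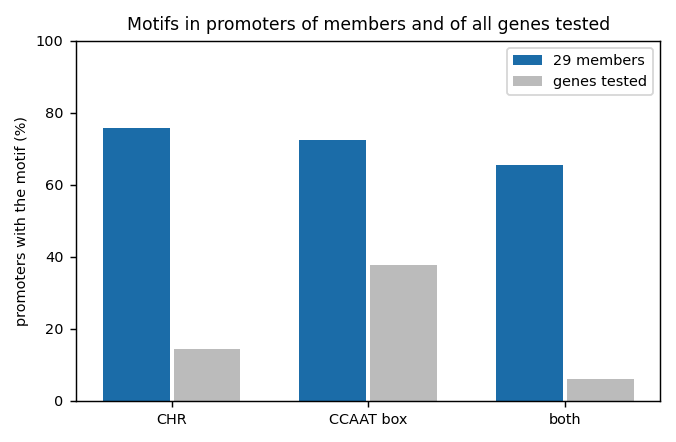
Share of promoters, in percent, that hold a CHR, a CCAAT box or both, for the 29 members in the promoter table (blue) and for the 13011 promoters of tested genes (grey). The share with both motifs is 65.5% of the members and 5.93% of the tested genes.

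The promoters of 7 members on which the ratios below turn are shown from 120 bases before to 30 bases after the start, 5′ to 3′ on the gene's strand, with CHR and CCAAT matches in capitals. Cdc20 (chr4:118437314-118437463 on the minus strand) and Ube2c (chr2:164769809-164769958 on the plus strand) had ratios above 0 in each line. Ttk (chr9:83834569-83834718 on the plus strand), Bub1 (chr2:127831830-127831979 on the minus strand), Cenpf (chr1:189688057-189688206 on the minus strand) and Top2a (chr11:99024160-99024309 on the minus strand) had ratios below 0 in each line after quantile normalization, as did Nuf2 (chr1:169531435-169531584 on the minus strand), which has no match in the window. As deposited, the MC38 ratios of Ttk, Bub1, Cenpf and Top2a were 0.09, 0.29, 0.16 and 0.01.
Cdc20: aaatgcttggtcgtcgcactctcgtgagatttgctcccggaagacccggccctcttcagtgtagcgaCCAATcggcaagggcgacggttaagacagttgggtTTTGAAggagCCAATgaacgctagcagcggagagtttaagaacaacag
Ube2c: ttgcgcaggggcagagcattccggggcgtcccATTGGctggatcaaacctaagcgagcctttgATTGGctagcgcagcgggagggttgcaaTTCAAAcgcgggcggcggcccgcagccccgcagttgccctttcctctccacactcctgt
Ttk: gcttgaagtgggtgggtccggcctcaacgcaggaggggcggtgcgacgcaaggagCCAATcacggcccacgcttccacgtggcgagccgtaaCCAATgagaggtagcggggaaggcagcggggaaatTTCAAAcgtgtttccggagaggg
Bub1: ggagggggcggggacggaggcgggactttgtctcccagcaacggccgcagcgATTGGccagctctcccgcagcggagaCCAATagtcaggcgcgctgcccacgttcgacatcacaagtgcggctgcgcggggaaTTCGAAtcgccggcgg
Cenpf: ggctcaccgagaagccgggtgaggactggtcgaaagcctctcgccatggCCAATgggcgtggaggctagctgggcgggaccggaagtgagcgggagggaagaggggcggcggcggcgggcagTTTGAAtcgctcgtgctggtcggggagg
Top2a: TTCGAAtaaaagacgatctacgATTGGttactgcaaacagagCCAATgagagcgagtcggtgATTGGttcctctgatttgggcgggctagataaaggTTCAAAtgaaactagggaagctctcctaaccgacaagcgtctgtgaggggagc
Nuf2: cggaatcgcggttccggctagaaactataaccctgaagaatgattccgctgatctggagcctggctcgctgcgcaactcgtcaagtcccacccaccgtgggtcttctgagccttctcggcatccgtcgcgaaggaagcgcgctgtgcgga

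Members on both sides of 0 share these motifs. Among the 28 measured members with a promoter in the table, the median ratios of the 19 with both motifs were -0.24, -0.58 and -0.22 in LLC, AE17 and MC38, against -0.52, -0.84 and -0.21 for the 9 without 1 or both. These medians were taken after quantile normalization only, and their difference was not tested. All 5 measured members with a mean ratio above 0, Cdc20, Ube2c, Aurka, Cdca8 and Plk1, lie among the 19. The promoters of Nuf2, Mad2l1, Nusap1, Birc5 and Pttg1 held neither motif.

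Most mitosis genes were lower on the sh Spp1 arrays after normalization, but as deposited their median lay above that of all genes in LLC and MC38. The median ratios of the 34 members were -0.39, -0.66 and -0.12 in LLC, AE17 and MC38, compared with 0.03, -0.04 and 0.02 for all tested genes. Of the 34, 21 were below 0 in every line, where 15.5% of all genes were, and 2, Cdc20 and Ube2c, were above 0 in every line, where 16.8% of all genes were. The other 11 had mixed signs, as 67.7% of all genes did. In the limma fit, blocked by line, 0 members and 0 of all genes (0%) passed the threshold of 0.05 after adjustment, with 0.723 as the lowest adjusted p of a member. Before adjustment 7 members passed it as lower and 0 as higher, against 2.61% and 3.45% of all genes. These were Nuf2, Ttk, Top2a, Ndc80, Ccnb2, Pttg1 and Bub1. An exact sign-flip test over 3 lines cannot go below p = 0.25.

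The scaling between arrays decides the sign of the whole group in LLC and MC38. Relative to the median of all genes, the members lay at -0.42, -0.62 and -0.14 in LLC, AE17 and MC38 after quantile normalization. With cyclic loess, a scaling added after the data were seen, they lay at -0.47, -0.65 and -0.17, with 24 below 0 in every line (15.4% of all genes) and 2 above (16%). In the values as deposited they lay at 0.12, -0.30 and 0.15, and 4 members were below 0 in every line and 3 above, against 30.5% and 12.3% of all genes. Below 0 as deposited were 26 members in LLC (74.1% of all genes), 27 in AE17 (61.1%) and 5 in MC38 (43.3%). Set against the deposited median of all genes, 3 members were below it in every line, where 24.9% of all genes were. That median was -0.46 for LLC, -0.23 for AE17 and 0.08 for MC38. Only the shift in AE17 kept its sign under these scalings.

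**Figure D2:**
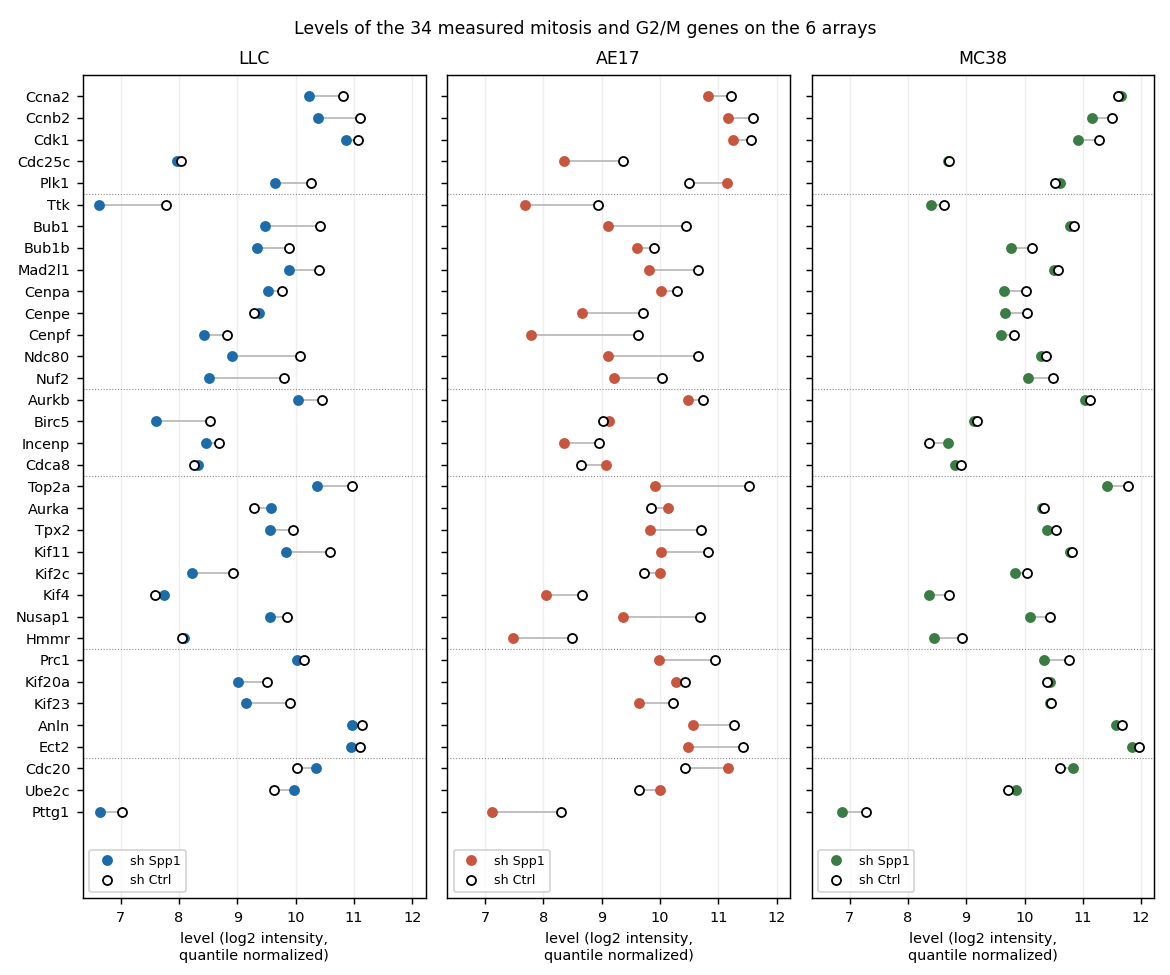
Level of each of the 34 measured members (log2 intensity, quantile normalized) on the sh Spp1 array (filled) and the sh Ctrl array (open) of LLC, AE17 and MC38, 1 array per point, with dotted lines between subsets. The 6 levels of a gene run from 6.62 for Ttk on the LLC sh Spp1 array to 11.96 for Ect2 on the MC38 sh Ctrl array, and the widest gap is that of Cenpf in AE17, with a ratio of -1.84.

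Among the genes of mitotic entry, 3 of the 5 measured were below 0 in every line and 0 above, but 0 and 0 as deposited. The subset's median less that of all genes was -0.60, -0.35 and -0.05 in LLC, AE17 and MC38 but 0.10, 0.01 and 0.21 as deposited. Cyclin B2 (Ccnb2, Entrez gene 12442) had levels of 10.38, 11.17 and 11.16 on the sh Spp1 arrays of LLC, AE17 and MC38, against 11.10, 11.59 and 11.50 on the sh Ctrl arrays. Its ratios of -0.72, -0.42 and -0.34 gave a mean of -0.49 ± 0.20 (SD, n = 3 lines), with an unadjusted p in limma of 0.0419 and an adjusted p of 0.723. The sh Spp1 array was the lower in each line, although over lines the groups overlapped. As deposited the MC38 ratio was 0.05.

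Cdk1 itself, the kinase of mitotic entry, had closely similar ratios of -0.20, -0.31 and -0.35 (mean -0.29 ± 0.08), and 0.05, -0.12 and 0.05 as deposited. Cyclin A2 (Ccna2), which acts in S phase and G2, had -0.58, -0.39 and 0.05. Cdc25c, a phosphatase that activates Cdk1, had -1.01 in AE17 and -0.08 and -0.03 in LLC and MC38. The polo-like kinase Plk1, which acts from mitotic entry to cytokinesis, had levels of 9.65, 11.14 and 10.60 on the sh Spp1 arrays, against 10.27, 10.49 and 10.53 on the sh Ctrl arrays. Its ratios thus ran from -0.62 in LLC to 0.65 in AE17, with 0.06 in MC38, and as deposited they were -0.47, 0.84 and 0.46.

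Kinetochore and checkpoint genes had the lowest medians of the 6 subsets in AE17, at -1.05, with -0.55 in LLC and -0.23 in MC38. Less the median of all genes, the deposited values gave -0.73 in AE17 but -0.01 and 0.01 in LLC and MC38. Of the 9 members, 8 were below 0 in every line after quantile normalization, where 15.5% of all genes were. As deposited 1 was, where 30.5% of all genes were, and 1 of the 9 was below 0 in MC38. The exception after normalization was Cenpe, the kinetochore kinesin, with 0.09, -1.05 and -0.39. Ndc80 (Entrez gene 67052), the microtubule-binding subunit of the outer kinetochore, had levels of 8.91, 9.10 and 10.29 on the sh Spp1 arrays of LLC, AE17 and MC38, against 10.07, 10.65 and 10.36 on the sh Ctrl arrays. Its mean ratio was -0.93 ± 0.77 (SD, n = 3 lines), with an unadjusted p in limma of 0.0408 and an adjusted p of 0.723. The sh Spp1 arrays of LLC and AE17 lay below all 3 sh Ctrl arrays, and that of MC38 lay among them. As deposited, the MC38 ratio of Ndc80 was 0.33.

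Nuf2 (Entrez gene 66977), the partner of Ndc80 in the same complex, had 8.51, 9.21 and 10.06 on the sh Spp1 arrays, against 9.80, 10.03 and 10.48 on the sh Ctrl arrays. The mean ratio was -0.85 ± 0.43, with the smallest unadjusted p among the members, 0.0161 in limma, and an adjusted p of 0.723. It and Pttg1 were the 2 members below 0 in all 3 lines under quantile normalization, cyclic loess and the values as deposited, where 9.57% of all genes were. With each array centred on its median, the MC38 ratios were 0.17 for Nuf2 and -0.12 for Pttg1. The deposited Nuf2 ratios were -1.27, -0.71 and -0.01.

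Ttk (Entrez gene 22137), also called Mps1, is the kinase that starts checkpoint signalling at unattached kinetochores. It had 6.62, 7.69 and 8.40 on the sh Spp1 arrays, against 7.78, 8.94 and 8.62 on the sh Ctrl arrays, and its ratios were -1.15, -1.25 and -0.22. The 2 lower sh Spp1 levels lay under all sh Ctrl levels. The checkpoint kinase Bub1 had 9.47, 9.11 and 10.78 on the sh Spp1 arrays, against 10.41, 10.45 and 10.85 on the sh Ctrl arrays, with ratios of -0.93, -1.34 and -0.07 and the same 2 arrays below all sh Ctrl arrays. As deposited, the MC38 ratios of Ttk and Bub1 were 0.09 and 0.29.

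The large kinetochore protein Cenpf had the widest spread of ratios, with 8.43, 7.78 and 9.59 on the sh Spp1 arrays, against 8.83, 9.62 and 9.82 on the sh Ctrl arrays. Its ratios were -0.40, -1.84 and -0.23, with 0.16 in MC38 as deposited. The checkpoint protein Mad2l1, which binds Cdc20, had -0.52, -0.84 and -0.08. Bub1b (BubR1), a subunit of the same inhibitory complex, had -0.55, -0.28 and -0.35, and the centromeric histone Cenpa had -0.24, -0.28 and -0.38. Bub1b and Cenpa varied least between lines among these 9, with SDs of 0.14 and 0.07.

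**Figure D3:**
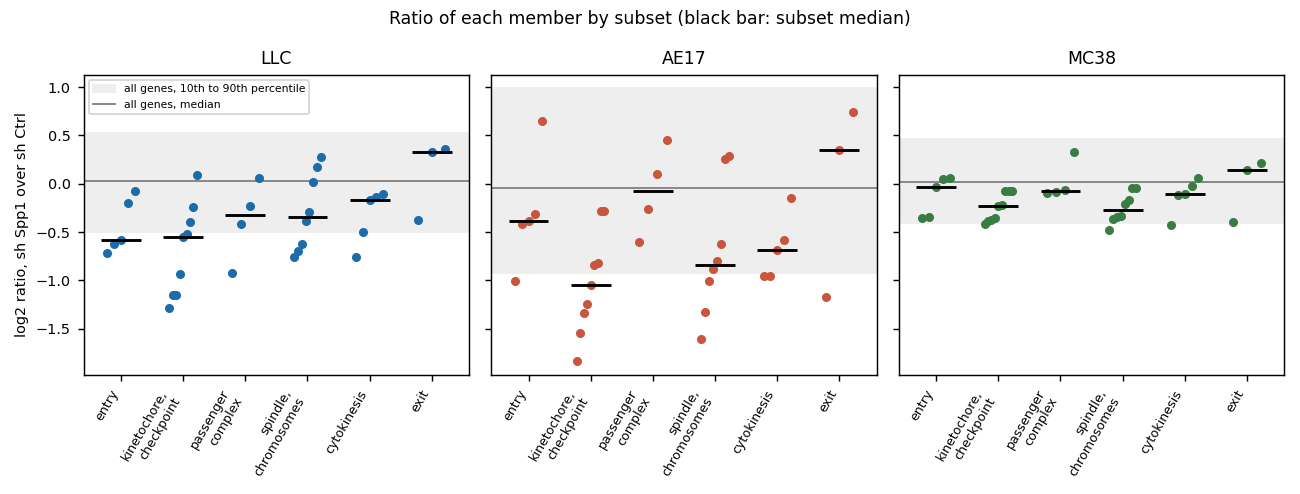
Log2 ratio of sh Spp1 over sh Ctrl for each member (points), by subset, in LLC, AE17 and MC38, after quantile normalization. Black bars are subset medians, the grey line is the median and the band the 10th to 90th percentile of all 16797 genes. The kinetochore medians are -0.55, -1.05 and -0.23, and 2 of the 3 points of the exit subset lie above 0 in each panel.

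The chromosomal passenger complex corrects faulty attachments and then moves to the cleavage plane. Its kinase Aurkb had ratios of -0.42, -0.26 and -0.09 in LLC, AE17 and MC38 and was the only 1 of the 4 subunits below 0 in every line. Survivin (Birc5) had 7.61, 9.12 and 9.13 on the sh Spp1 arrays, against 8.53, 9.02 and 9.19 on the sh Ctrl arrays, a ratio of -0.92 in LLC and 0.10 and -0.06 in AE17 and MC38. The scaffold Incenp had -0.23, -0.60 and 0.33, and borealin (Cdca8) had 0.06, 0.45 and -0.10. After quantile normalization the 4 subunits thus had no common sign in any line. In LLC all 4 were below 0 after cyclic loess and as deposited, with Cdca8 at -0.02 and -0.08, and in MC38 all 4 were above 0 as deposited.

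Among the genes of spindle and chromosomes, 4 of 8 were below 0 in every line and 0 above, but 2 and 1 as deposited. The median less that of all genes was -0.36, -0.80 and -0.29 in LLC, AE17 and MC38, but 0.24, -0.49 and 0.05 as deposited. Top2a (Entrez gene 21973), the topoisomerase that disentangles sister chromatids, had 10.36, 9.91 and 11.41 on the sh Spp1 arrays, against 10.97, 11.52 and 11.78 on the sh Ctrl arrays. Its mean ratio was -0.87 ± 0.66 (SD, n = 3 lines), with an unadjusted p in limma of 0.0352 and an adjusted p of 0.723. The LLC and AE17 sh Spp1 arrays lay below every sh Ctrl array. As deposited, the MC38 ratio was 0.01.

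Kif11, the kinesin that pushes spindle poles apart, had ratios of -0.76, -0.80 and -0.04, and the spindle assembly factor Tpx2 had -0.39, -0.88 and -0.17. Nusap1, a microtubule-binding protein of the spindle, had -0.29, -1.33 and -0.33. The kinase Aurka, which Tpx2 activates, did not share their sign in LLC and AE17: it had 9.57, 10.14 and 10.30 on the sh Spp1 arrays, against 9.29, 9.85 and 10.34 on the sh Ctrl arrays. Kif2c (MCAK), a kinesin that depolymerises microtubules, had -0.70, 0.26 and -0.21. The chromokinesin Kif4 had 0.17, -0.62 and -0.34, and Hmmr, a spindle-associated hyaluronan receptor, had 0.02, -1.01 and -0.48.

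Of the 5 cytokinesis genes, 4 were below 0 in every line, but 0 as deposited. The median less that of all genes was -0.20, -0.66 and -0.13, but 0.51, -0.31 and 0.16 as deposited. The midzone bundler Prc1 had ratios of -0.11, -0.96 and -0.43 in LLC, AE17 and MC38. Kif23, the motor of centralspindlin, had -0.76, -0.58 and -0.02, and Ect2, the exchange factor that activates RhoA at the cleavage furrow, had -0.14, -0.96 and -0.12. The furrow scaffold Anln had -0.17, -0.69 and -0.11. The exception was Kif20a, a midzone kinesin, with -0.50, -0.15 and 0.06. As deposited, the sign in LLC was turned for Prc1, Anln and Ect2, at 0.05, 0.10 and 0.12.

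The genes of mitotic exit divided. Cdc20 (Entrez gene 107995) had levels of 10.35, 11.17 and 10.83 on the sh Spp1 arrays of LLC, AE17 and MC38, against 10.03, 10.43 and 10.61 on the sh Ctrl arrays. Its mean ratio was 0.43 ± 0.28 (SD, n = 3 lines), with an adjusted p in limma of 0.723. Ube2c (Entrez gene 68612) had 9.98, 9.99 and 9.86, against 9.62, 9.64 and 9.72, a mean ratio of 0.28 ± 0.12 with the same adjusted p. For Ube2c all 3 sh Spp1 arrays lay above all 3 sh Ctrl arrays, whereas for Cdc20 the groups overlapped over lines. Both were above 0 in each line under all 3 scalings, where 6.75% of all genes were, with deposited ratios of 0.50, 0.96 and 0.58 for Cdc20 and 0.48, 0.52 and 0.52 for Ube2c.

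Securin (Pttg1, Entrez gene 30939), the inhibitor of separase, had levels of 6.65, 7.12 and 6.87 on the sh Spp1 arrays, against 7.02, 8.30 and 7.28 on the sh Ctrl arrays. Its ratios were -0.38, -1.17 and -0.40, and -0.93, -1.14 and -0.30 as deposited. The mean was -0.65 ± 0.45, with an unadjusted p in limma of 0.0423 and an adjusted p of 0.723. Each line had the lower level on its sh Spp1 array, with overlap between lines.

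By construction, as many members lie above the median of the 34 as below it in each line. When each ratio was set against the median of the 34 members in the same line, 5 members lay above that median in all 3 lines under quantile normalization, cyclic loess and the values as deposited. These were Cdc20, Ube2c, Aurka, Cdca8 and Incenp. The 4 members below it in all these cases were Ttk, Nuf2, Top2a and Cenpf, the last by under 0.01 in LLC after normalization. Of all genes, 10.1% lay above and 9.2% below the median of all genes in the same cases, so the counts of 5 and 4 are given as a description only. Cdc20 exceeded the median by 0.72, 1.40 and 0.33 in LLC, AE17 and MC38, and by 0.84, 1.49 and 0.34 as deposited. Ttk lay at -0.76, -0.59 and -0.11, and at -1.27, -0.64 and -0.14 as deposited.

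**Figure D4:**
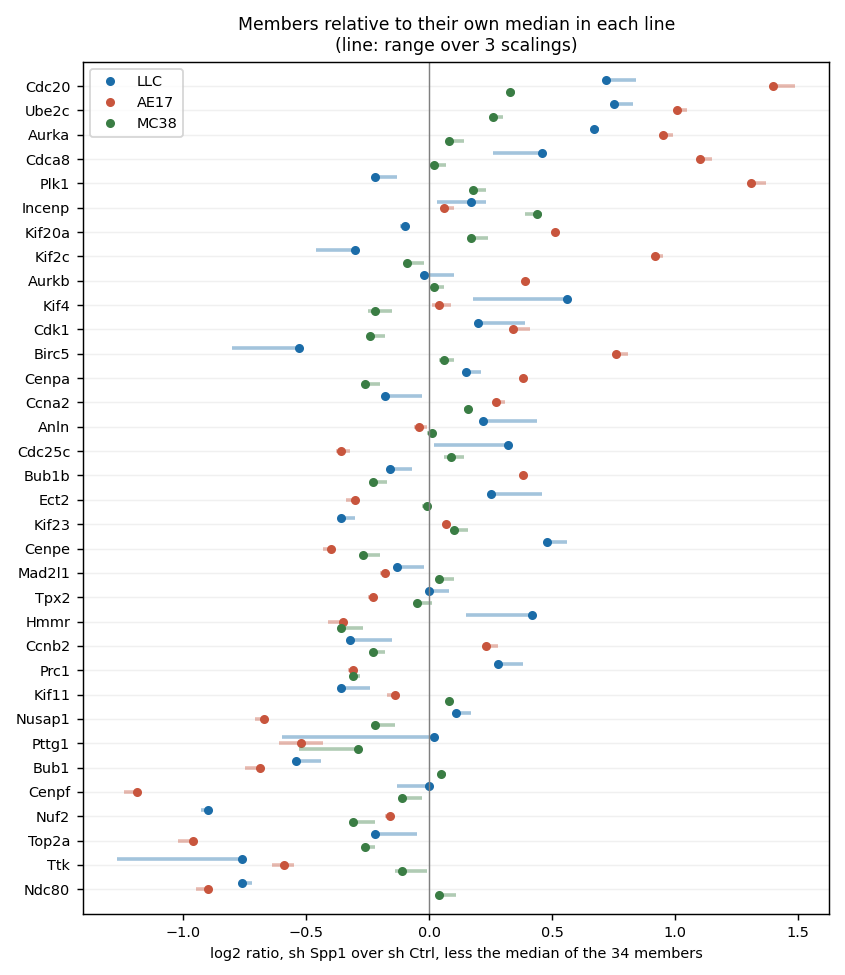
Log2 ratio of sh Spp1 over sh Ctrl less the median of the 34 members in the same line, for LLC (blue), AE17 (red) and MC38 (green). Points are quantile normalized values and lines span quantile normalization, cyclic loess and the values as deposited. Cdc20 and Ube2c lie to the right of 0 in each line, by 1.40 and 1.01 in AE17, and Ttk lies to the left.

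The lines differed in how far members moved. At a ratio of -1 or lower there were 3 members in LLC (Nuf2, Ttk and Ndc80), where 1.75% of all genes were, 10 in AE17, where 8.63% were, and 0 in MC38, where 1.64% were. No member reached 1 or higher in any line, against 1.7%, 9.93% and 0.863% of all genes. Members below 0 numbered 27, 27 and 28 of 34, where 47.2%, 52.7% and 47.7% of all genes were. Over the 34 members the ratios of LLC and AE17 correlated at Pearson r = 0.328, those of AE17 and MC38 at 0.442 and those of LLC and MC38 at 0.0992, as a description. In the same order, r over all genes was 0.0694, 0.0444 and 0.142. The Spearman rank correlations of the members were 0.227, 0.449 and -0.00932. Members are not independent replicates, and the arrays of each line entered the same normalization. In LLC and AE17, 20 of the 34 members were below 0 under quantile normalization, cyclic loess and the values as deposited, where 22.2% of all genes were. Median centring of the arrays is not among these scalings. With centred arrays, the only members below 0 in both LLC and AE17 were Ttk, Ndc80, Nuf2 and Pttg1. Centring put the median ratio of all genes at 0.33 in LLC and 0.22 in AE17. Set against the deposited median of all genes, 12 of the 34 were below it in LLC and 21 in AE17. By construction 8398 of the 16797 genes are.

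**Figure D5:**
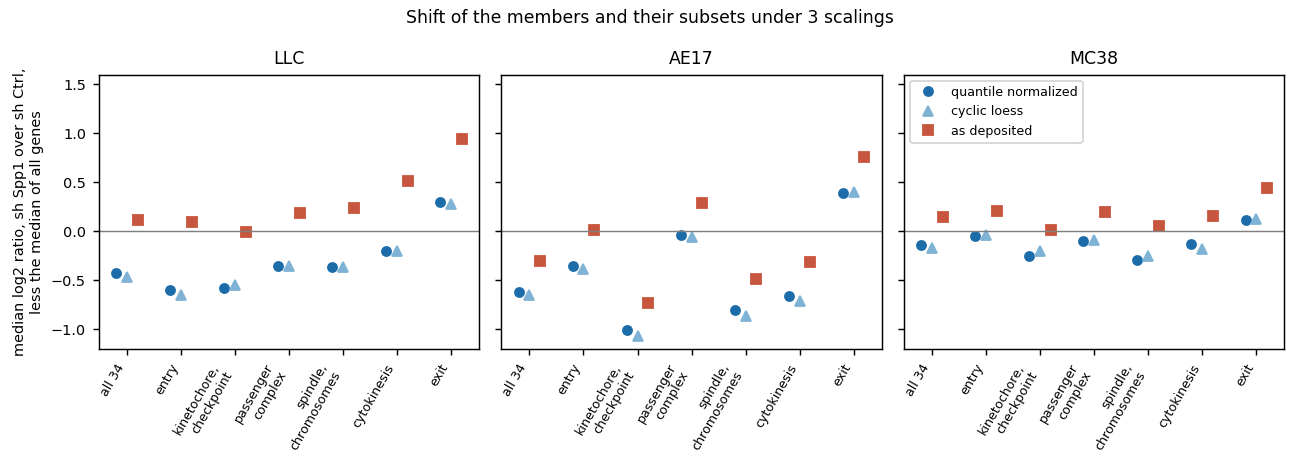
Median log2 ratio of sh Spp1 over sh Ctrl, less the median of all genes, for the 34 measured members and the 6 subsets in LLC, AE17 and MC38 (circles, quantile normalized; triangles, cyclic loess; squares, as deposited). All members lie at -0.42, -0.62 and -0.14 after quantile normalization and at 0.12, -0.30 and 0.15 as deposited. The exit subset is the highest in every panel but holds 3 genes, of which Pttg1 had normalized ratios of -0.38, -1.17 and -0.40.

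Further mitosis genes, listed with earlier results of these data known, are given for comparison. Of 106 named, 99 were tested. They had median ratios of -0.36, -0.55 and -0.11 in LLC, AE17 and MC38, and 49, or 49.5%, were below 0 in every line, compared with 61.8% of the members and 15.5% of all genes. This difference from the members was not tested. Less the median of all genes these were -0.38, -0.51 and -0.13, but -0.05, -0.25 and 0.12 as deposited. The 2 above 0 in every line were Cdc25a, a phosphatase that activates cyclin-dependent kinases, at 0.25, 0.44 and 0.46, and the Ndc80 complex subunit Spc24 at 0.28, 0.23 and 0.19, which was named after its values were seen. By list, 15 of 33 kinetochore and centromere genes were below 0 in every line, 14 of 22 of the spindle and centrosome, 2 of 6 of cytokinesis, 5 of 10 of condensin and cohesion and 13 of 28 of entry and exit control. Before adjustment 14 of the 99 passed 0.05 in limma as lower and 0 as higher, where 2.61% and 3.45% of all genes did, and 0 passed after adjustment. As deposited, 16, or 16.2%, were below 0 in every line and 8, or 8.08%, above, both under the shares of all genes, 30.5% and 12.3%.

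The lowest mean ratios among them belonged to Mastl (Greatwall), the kinase that restrains the phosphatase opposing Cdk1, with levels of 8.44, 8.50 and 9.72 on the sh Spp1 arrays, against 9.35, 10.44 and 10.42 on the sh Ctrl arrays. Mastl had -0.91, -1.94 and -0.70, and -0.93, -1.88 and -0.30 as deposited. Next were Esco2, which acetylates cohesin, at -1.02, -2.03 and 0.04, the spindle kinesin Kif15 at -1.28, -1.39 and -0.32, and Shcbp1 at -0.86, -1.97 and -0.04. The highest were Gtse1 at 1.02, 0.38 and -0.09, Cdc25a, Ensa, a substrate of Mastl, at 0.65, 0.48 and -0.06, and Anapc1, the scaffold of the anaphase-promoting complex, at -0.20, 1.27 and -0.08.

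Genes of DNA replication, the neighbouring programme of S phase, had another pattern over the lines. The medians of their 34 tested genes were -0.69, 0.00 and 0.05 in LLC, AE17 and MC38, against -0.39, -0.66 and -0.12 for the mitosis genes. Below 0 were 31, 17 and 16 of the 34 replication genes, against 27, 27 and 28 of the 34 mitosis genes. Of all genes, 47.2%, 52.7% and 47.7% were, so the replication genes lay near that share in AE17 and MC38. As deposited, the replication median less that of all genes was -0.22, 0.37 and 0.30, against 0.12, -0.30 and 0.15 for the mitosis genes. The difference between these lists was not tested.

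Between lines, the mitosis genes were higher in MC38 than in LLC. The median difference of MC38 minus LLC over the members was 0.66, where all genes had 0.00, and 32 of 34 differences were above 0. In the additive limma model 0 members and 0 of all genes (0% in each direction) passed after adjustment, and the smallest adjusted p of a member was 0.215. Before adjustment 13 members passed 0.05 as higher in MC38 and 0 as lower, against 6.24% and 5.29% of all genes. Kif20a had 10.44 and 10.39 on the sh Spp1 and sh Ctrl arrays of MC38, against 9.01 and 9.51 in LLC, a difference of 1.16 with a standard error of 0.24. Kif2c had 9.84 and 10.05, against 8.22 and 8.92, a difference of 1.37 with a standard error of 0.30 and an adjusted p in limma of 0.235. Both MC38 arrays lay above both LLC arrays for each. Exceptions were Ube2c, at -0.01, and Incenp, at -0.05.

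For AE17 minus LLC the median over the members was 0.42, where all genes had 0.09, and 29 of 34 were above 0. At an unadjusted p under 0.05 there were 8 members higher and 0 lower, against 7.83% and 4.99% of all genes. For MC38 minus AE17 the median was 0.20, where all genes had -0.08, with 3 members higher and 0 lower, against 5.34% and 7.81%. After adjustment 0 members and 0% of all genes passed in either contrast, with smallest adjusted p of 0.281 and 0.321 among the members. These contrasts share arrays, and their error in limma holds the different responses of the lines to the hairpin. Their differences are on quantile normalized levels. As deposited, the members' median intensity was 731.2 and 973 on the sh Spp1 and sh Ctrl arrays of AE17, against 876.5 and 1043 in LLC. In MC38 it was 1587 and 1301. The medians of all probe sets were 26.6 and 36.3 in AE17, 37.2 and 64.2 in LLC and 43.7 and 49.4 in MC38.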

How the data were processed

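The authors deposited linear intensities of 41345 probe sets for the 6 arrays. RMA is named in the submitters' processing notes and GeneSpring GX 12.5 in the series' design text, with settings not given in the sources used here. Groups came from the sample titles. After a log2 transform the arrays were quantile normalized (limma 3.58.1, R 4.3.3). Of the probe sets 23521 had 1 symbol in the platform annotation, 1814 several and 16010 none. Single-symbol probe sets whose mean reached the 30th percentile, 4.49, were kept, and the brightest stood for its gene.

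The sh Spp1 effect and the contrasts between lines were fitted with lmFit and eBayes over 16797 genes, with Benjamini-Hochberg adjustment at 0.05. The cell line label pairs the arrays, and the deviations of paired arrays from their group means correlated at 0.521, 0.156 and 0.578 for LLC, AE17 and MC38. All p-values in limma rest on the spread of the ratios between lines, which eBayes moderates with the spread over all genes. With 1 array per group and line, values within a line have no replicate, and the number of arrays limits precision. On simulated data with 200 changed genes in each of 5 runs, the fit recovered 98.5% of changes of 3 log2 units and 0.1% of changes of 1. All members, the 4 highest and 4 lowest of the further mitosis genes by mean ratio and counts per list are given by a fixed rule. Members, lists and rule were chosen with earlier results of these data known. Python 3.11.15 with matplotlib 3.10.9 drew the figures.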

Additional observations from a re-analysis of the deposited data

Results flagged for a closer look

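In 11 of the 34 measured members the ratio of sh Spp1 over sh Ctrl had opposite signs in 2 lines, as it did for 67.7% of all genes. With 1 array per group and line, these differences were not tested. The gap between the highest and the lowest line was 1.27 log2 units for Plk1, at 0.65 in AE17 and -0.62 in LLC, 1.02 for Birc5, at 0.10 in AE17 and -0.92 in LLC, and 0.96 for Kif2c, at 0.26 in AE17 and -0.70 in LLC. It was 1.14 for Cenpe, 1.03 for Hmmr and 0.79 for Kif4, each highest in LLC and lowest in AE17. It was 0.92 for Incenp, highest in MC38 and lowest in AE17, and 0.62 for Ccna2 and 0.56 for Kif20a, both highest in MC38 and lowest in LLC. Cdca8 had 0.55 and Aurka 0.33, highest in AE17 and lowest in MC38. In the values as deposited 8 of the 11 kept opposite signs, and Hmmr, Kif4 and Aurka did not. After cyclic loess 8 of the 11 did, and Hmmr, Kif4 and Ccna2 did not, so 7 had opposite signs under all 3 scalings. As deposited, mixed signs were not particular to these 11. Only 4 of the 34 members were then below 0 in every line and 3 above, against 30.5% and 12.3% of all genes.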

How the results depend on the processing

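The scaling changed the common shift of the members. Relative to the median of all genes, it was 0.12 in LLC and 0.15 in MC38 in the deposited values, against -0.42 and -0.14 after quantile normalization, so the sign was reversed. In AE17 it was -0.30, against -0.62. Median centring takes 1 constant from each array, so it gives the same shifts as the deposited values by construction. Members below 0 in every line numbered 4 as deposited and 1 with centred arrays, against 21, and those above 0 numbered 3 and 12, against 2. Centring moved the median ratio of all genes to 0.33 in LLC, 0.22 in AE17 and 0.26 in MC38. Cyclic loess, no brightness filter, a filter at the 50th percentile and averaging over probe sets kept these signs, with 21 to 24 members below 0 in every line. With each line left out in turn, 23 to 24 members were below 0 in the remaining lines and 2 to 4 above, the 4 without MC38. By construction these counts cannot fall under the 21 and 2 of all 3 lines, so they are no check on them. No share of all genes is given beside them. No setting called a gene for the sh Spp1 effect. Without the replicate block the smallest adjusted p in limma was 0.943, again with 0 calls, and over the other settings it ran from 0.126 with centred arrays to 0.865 without MC38. Of the line contrasts, array weights gave 1 member called for MC38 minus LLC, Kif2c, at an adjusted p of 0.0484, against 0. The cause was not tested.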
